A study of Homo sapiens with 2 samples.

Results

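Of the 2960 deletion sites listed for the splicing factor SF3A1 in C4-2B cells, 29 lay in small nucleolar RNAs (snoRNAs) or in the genes that host them. A site was taken by its position, with no use of its tag counts, if it fell inside a RefSeq snoRNA gene, inside a gene whose symbol starts with SNHG (the snoRNA host genes), or inside GAS5, ZFAS1, TAF1D, NOP58, NOP56, NCL, EIF4A2, WDR43, DKC1, RACK1 or EPB41L4A-AS1. Of the 29 sites, 14 were inside a snoRNA and 15 lay elsewhere in a host. SF3A1 is a subunit of the U2 small nuclear ribonucleoprotein (snRNP). It was immunoprecipitated with a specific antibody (2 µg) after 254 nm crosslinking at 400 mJ/cm2. The samples form 1 group of 2 libraries from C4-2B, a prostate cancer epithelial line of the LNCaP lineage in a CRISPRi-ready derivative, harvested at 48 h. No control group is labelled, and the list is pooled over both libraries, so replicate error could not be computed for any value.

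At each listed base, a number of the sequenced tags lacked that base. Reverse transcriptase can skip a crosslinked nucleotide, so such a deletion can mark contact between protein and RNA. The deleted share is the percentage of tags over the base that lack it. It is given with an exact Clopper-Pearson 95% interval, which covers counting error only. Whether a base deleted in every tag is present in the DNA of these cells was not tested.

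Most human snoRNAs are cut out of introns. Box C/D snoRNAs (SNORD) bind fibrillarin, NOP56, NOP58 and SNU13 and guide 2′-O-methylation of ribosomal and spliceosomal RNA, whereas box H/ACA snoRNAs (SNORA) bind dyskerin (DKC1) and guide pseudouridylation. In human host genes, box C/D snoRNAs usually lie a short way upstream of the branch point, the element that the U2 snRNP recognises, and their assembly is coupled to splicing. Many hosts, such as the SNHG genes and GAS5, are noncoding RNAs whose spliced exons are quickly degraded, while others encode proteins of ribosome production and translation.

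The snoRNA sites were nearly all in box C/D RNAs. Of 357 annotated SNORD genes, 13 held a site (3.64%), as did 1 of 182 SNORA genes (0.549%) and 0 of 652 snoRNA genes known only by a LOC number. Over all 1193 snoRNA genes, 1.17% held a site, and over all nuclear genes 3.87% did. snoRNA genes are short, with a median annotated length of 104 nt, and each of the 14 held a single site. The gene table used has no exons, so sites are placed by gene body. The host's strand was known for 25 of the 29 sites, and all 25 lay on it. For 9 of the 14 snoRNAs, the annotation holds another gene of the same number, such as SNORD12 and SNORD12B beside SNORD12C. Reads could be shared between such copies, and the assignment of those 9 is uncertain.

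The lowest deleted shares were found in 4 box C/D snoRNAs. SNORD83B, in the ribosomal protein gene RPL3, had 26 deleted of 229 tags at chromosome 22, position 39313842, a share of 11.4% (7.55 to 16.2). SNORD30, a guide for the large-subunit ribosomal RNA that lies in SNHG1, had 60 of 276 tags at chromosome 11, position 62853711, a share of 21.7% (17.0 to 27.1). SNORD2, in the translation helicase gene EIF4A2, had 136 of 430 tags at chromosome 3, position 186784830, a share of 31.6% (27.3 to 36.3). It was the best covered of all 29 sites. SNORD74, another large-subunit guide, lies in GAS5 and had 42 of 127 tags at chromosome 1, position 173867695, a share of 33.1% (25.0 to 42.0). At these 4 bases most tags were read through without the deletion. Over the whole list, 79 of 2960 sites had a share under 40%. Among sites with 200 or more tags, 3 of 4 in snoRNAs and 36 of 147 in the whole list had such a share.

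GAS5, the growth arrest-specific noncoding RNA, held a site in 2 of its 11 annotated snoRNAs and none elsewhere in its body. Its other site, in SNORD76 at position 173866659, had 146 of 181 tags, a share of 80.7% (74.1 to 86.1). The counting-error intervals of SNORD76 and SNORD74 do not overlap, although both snoRNAs come from 1 host transcript and their sites lie 1036 nt apart. The spread between libraries is unknown here too. SNORD50A in SNHG5 also had a partial share, 66.7% of 24 tags (44.7 to 84.4), on chromosome 6 at position 85677314. SNORD50A guides methylation of the large-subunit rRNA and is known to bind the K-Ras protein. Its interval is wide at this coverage and overlaps that of SNORD76.

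At the other 8 snoRNA sites the deletion was near complete. SNORD11, a small-subunit rRNA guide in NOP58, had it in all 214 tags at chromosome 2, position 202293089 (interval from 98.3%), the most deleted tags of any snoRNA site and rank 71 in the whole list. SNORD63, in the mitochondrial chaperone gene HSPA9, had it in all 112 tags, and SNORD18A, in the ribosomal protein gene RPL4, in all 99; both guide large-subunit methylation. The only H/ACA site was in SNORA53, inside SLC25A3 (the mitochondrial phosphate carrier), with the deletion in all 69 tags. SNORD12C in ZFAS1 had it in all 51, SNORD65 in SNHG29 in all 19 and SNORD22 in SNHG1 in all 13. SNORD59B, in the ATP synthase gene ATP5F1B, had 44 of 46 tags, or 95.7% (85.2 to 99.5). These sites lay at position 138561081 of chromosome 5 for SNORD63, 66503261 of chromosome 15 for SNORD18A, 98599740 and 56643692 of chromosome 12 for SNORA53 and SNORD59B, 49279001 of chromosome 20 for SNORD12C, 16441289 of chromosome 17 for SNORD65 and 62852996 of chromosome 11 for SNORD22. With 13 tags the interval for SNORD22 reaches down to 75.3%, so a partial share is not excluded by counting error there.

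**Figure D1:**
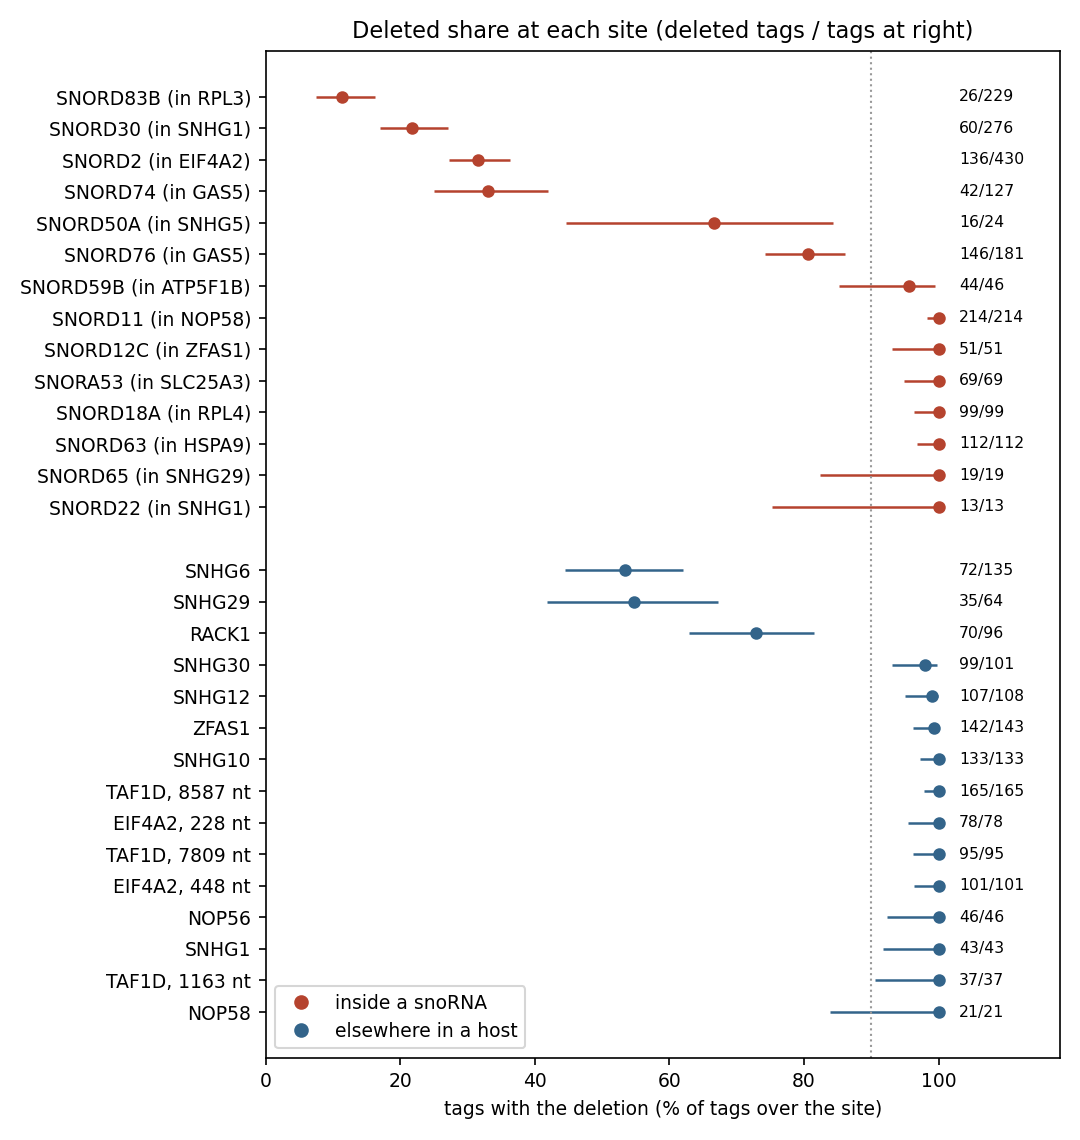
Deleted share at each of the 29 sites, in percent of the tags over the site, with exact 95% Clopper-Pearson intervals as bars and a dotted line at 90%. The upper group holds the 14 sites inside snoRNAs, 6 of them under 90% and 4 under 40%; the lower group holds the 15 sites elsewhere in hosts, 3 of them under 90% and 0 under 40%. Where a host has several such sites, the label gives the distance from its 5′ end. Of all 2960 sites in the list, 222 had a share under 90% and 79 under 40%.

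Of the 13 box C/D sites, 8 lay past the middle of the snoRNA as annotated. Whether this differs from an even spread was not tested. Positions were counted from 1 at the 5′ end, read along the strand of the site, since the table gives no strand for snoRNAs. In these 8 snoRNAs the site lay 9 to 24 nt before the annotated 3′ end, at 70.4% to 87.7% of the length. These were SNORD76 (base 57 of 81), SNORD74 (51 of 72), SNORD12C (57 of 79), SNORD50A (55 of 75), SNORD83B (70 of 93), SNORD18A (54 of 70), SNORD59B (63 of 75) and SNORD65 (64 of 73). The first 6 of these fell between 70% and 78% of the length; SNORD76 and SNORD74 share the host GAS5, and the other 4 each have a host of their own.

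The other 5 box C/D sites lay at 31.4% to 50% of the length. They were SNORD30 (base 22 of 70), SNORD22 (40 of 126), SNORD63 (30 of 68), SNORD11 (39 of 84) and SNORD2 (35 of 70). The site nearest to a 5′ end was that of SNORD30, at base 22; box C, which lies close to the 5′ end in such RNAs, was not located. Partial shares occurred in both places: 4 of the 8 sites near the 3′ end and 2 of the 5 others. The SNORA53 site was at base 106 of 250.

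**Figure D2:**
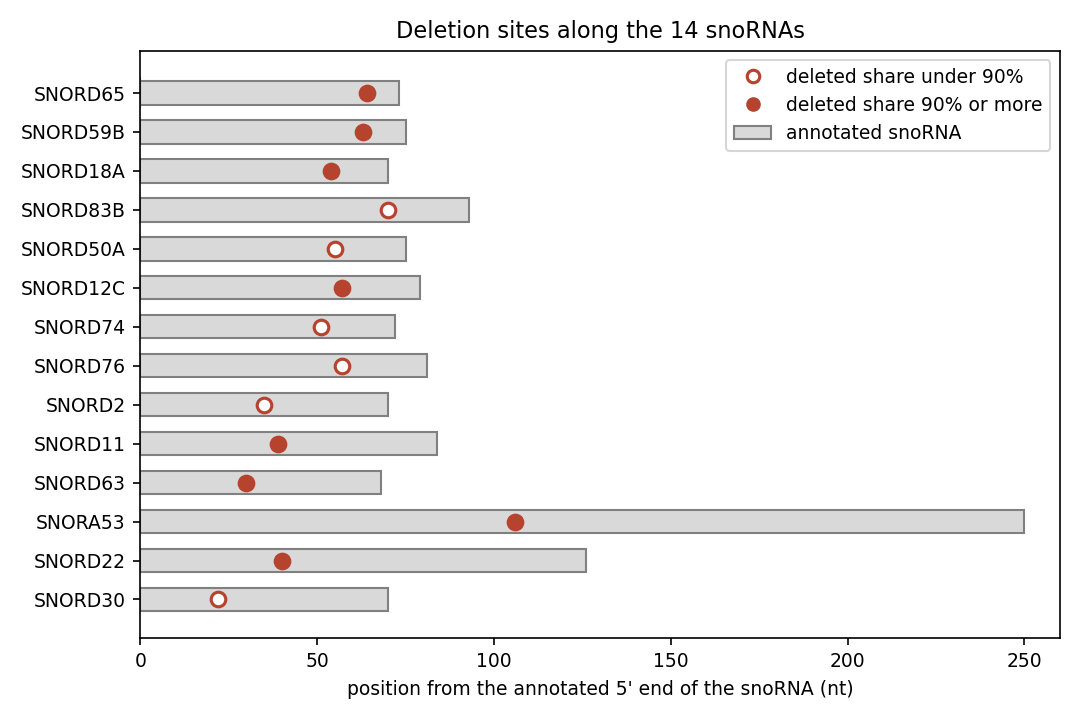
Place of the deletion site (circle) along each of the 14 snoRNAs (grey bar, annotated length in nt from the 5′ end), ordered by relative position. Open circles mark the 6 sites with a deleted share under 90%; the 8 snoRNAs at the top have their site 9 to 24 nt before the 3′ end.

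Of the 40 host genes in the rule, 14 held a site and 26 did not. Among the 32 noncoding hosts 9 had a site (28.1%), against 1.19% of all long noncoding genes, and among the 8 protein-coding hosts 5 had one (62.5%), against 10.1% of all protein-coding genes. The hosts were picked with earlier results of these data known, and RNA abundance was not measured, so these shares are a description. In 5 hosts sites lay both in a snoRNA and elsewhere (NOP58, EIF4A2, SNHG1, SNHG29 and ZFAS1), in 2 only in snoRNAs (GAS5 and SNHG5) and in 7 only elsewhere (SNHG6, SNHG10, SNHG12, SNHG30, TAF1D, RACK1 and NOP56). The 40 hosts contain 181 annotated snoRNAs, of which 9 held a site. In 5 of the 40 hosts no snoRNA gene is annotated, and 1 of these 5, SNHG10, held a site.

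The 26 hosts without a listed site were SNHG3, SNHG4, SNHG7, SNHG8, SNHG9, SNHG11, SNHG14, SNHG15, SNHG16, SNHG17, SNHG18, SNHG19, SNHG20, SNHG21, SNHG22, SNHG25, SNHG26, SNHG27, SNHG28, SNHG31, SNHG32, SNHG33, EPB41L4A-AS1, NCL, WDR43 and DKC1. SNHG14, the long transcript of the imprinted region on chromosome 15, alone holds 84 of the 181 snoRNAs. NCL encodes nucleolin and DKC1 encodes dyskerin. Positions that missed the authors' FDR of 10% are left out of the list, and the tags over these 26 genes are therefore unknown.

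**Figure D3:**
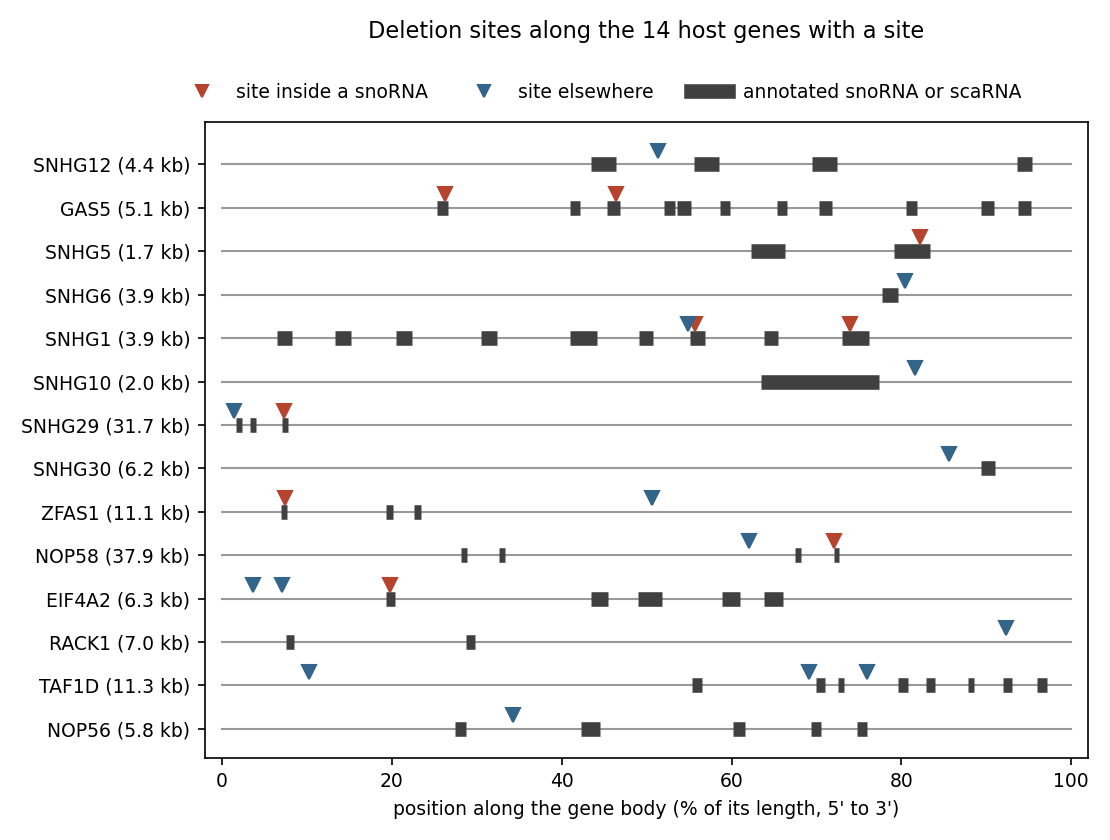
The 14 hosts with a site, noncoding above and protein-coding below, each drawn from 5′ to 3′ as a percentage of its own body. Dark blocks are annotated snoRNAs or scaRNAs, and triangles mark the 9 sites inside snoRNAs and the 15 sites elsewhere in these hosts.

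SNHG1 and SNHG29 held sites both in and beside their snoRNAs. In SNHG1, which has 9 annotated snoRNAs, a site with the deletion in all 43 tags (interval from 91.8%) lay 9 nt upstream of the 5′ end of SNORD30, at position 62853741. It is only 30 nt from the SNORD30 site, where 276 tags gave 21.7%. In the pooled tags these neighbouring bases thus differed in both coverage and deleted share, with counting-error intervals that do not overlap. The spread between libraries is unknown. In SNHG29, a site at position 16439456 of chromosome 17 lay 53 nt upstream of SNORD49B and had 35 of 64 tags, or 54.7% (41.7 to 67.2).

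Other noncoding hosts had their sites at a range of distances from the small RNA. The SNHG6 site, on chromosome 8 at position 66922446, was 28 nt past the 3′ end of SNORD87 and had 72 of 135 tags, or 53.3% (44.6 to 62.0); the body of the protein-coding gene MCMDC2 also covers it, and SNHG6's strand is not in the tables used. SNHG10 hosts a small Cajal body RNA, SCARNA13, a class that guides modification of spliceosomal RNA. Its site, at position 95533272 of chromosome 14, was 83 nt past the 3′ end of SCARNA13 and had the deletion in all 133 tags. SNHG12 had 107 of 108 tags deleted at a site 187 nt upstream of SNORA44 (chromosome 1, position 28580699), and SNHG30 had 99 of 101 at a site 237 nt upstream of SNORD7 (chromosome 17, position 35573420). ZFAS1, the noncoding neighbour of ZNFX1, had 142 of 143 at a site 3018 nt past SNORD12 (chromosome 20, position 49283790).

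The 8 sites elsewhere in protein-coding hosts had the deletion in every tag, with the exception of RACK1. TAF1D, a subunit of the RNA polymerase I selectivity factor, has 8 annotated snoRNAs and held no site in any of them. Its 3 sites had the deletion in all 165 tags at position 93732909 of chromosome 11, all 95 at 93733687 and all 37 at 93740333. They lay 319 nt past SNORD5, 90 nt upstream of SNORA18 and 5097 nt upstream of SNORA40, the nearest small RNA of the host in each case.

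The middle TAF1D site also lies in the annotated microRNA gene MIR1304, at base 78 of its 91 nt body. It is 37 nt beyond the mature miR-1304-5p on the minus strand, at chr11:93733724-93733745 in GRCh38.p14. Only this product was placed, so the distance to any other mature product of MIR1304 is not given. The mature sequence from RefSeq is shown 5′ to 3′ to place the site outside it, with the seed in capitals.
hsa-miR-1304-5p: uUUGAGGCuacagugagaugug

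EIF4A2 had the deletion in all 78 tags at 228 nt and in all 101 tags at 448 nt from its 5′ end, both upstream of SNORD2. The SNORD2 site itself lay 1254 nt from the 5′ end and was the only one of the 3 with a partial share. NOP58 and NOP56, the paired core proteins of box C/D particles, held 1 site each outside their snoRNAs, with all 21 tags deleted in NOP58 and all 46 in NOP56. The NOP56 site was 317 nt past SNORD110, at position 2654603 of chromosome 20, and the NOP58 site 2049 nt upstream of SNORD11B, at 202289268 of chromosome 2. RACK1, a scaffold protein of the small ribosomal subunit, had 70 of 96 tags, or 72.9% (62.9 to 81.5), at position 181237440 of chromosome 5. That site was at 92.3% of the gene body, 4378 nt past SNORD96A. Across all 15 sites outside snoRNAs the nearest snoRNA or scaRNA of the host was a median of 317 nt away (range 9 to 5097). Within 100 nt lay 5 sites, 3 upstream of the 5′ end and 2 past the 3′ end.

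Partial deletion was compared between the sites in snoRNAs, the sites elsewhere in the hosts and the whole list. A deleted share under 90% was found at 6 of 14 snoRNA sites (42.9%, interval 17.7 to 71.1) and 3 of 15 other host sites (20%, 4.33 to 48.1), against 7.5% of all 2960 sites. The deletion was complete at 7 snoRNA sites and 9 other host sites, against 75.8% of all sites. The median share was 97.8% in snoRNAs, 100% elsewhere in hosts and 100% over all sites. Sites are not samples, so no test was made over them and no difference between snoRNAs and the rest of their hosts is claimed.

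Partial shares were more frequent at higher coverage in snoRNAs and over the whole list, but not at the other host sites. The median coverage was 105.5 tags at snoRNA sites (range 13 to 430) and 96 tags at other host sites (21 to 165), against 54 over all sites. Among sites with 100 or more tags, 5 of 7 in snoRNAs and 1 of 7 elsewhere in hosts had a share under 90%, against 13.8% of all 689 such sites. With 200 or more tags, 3 of 4 snoRNA sites had such a share, against 34.7% of all 147 such sites, and no other host site was covered as deeply. With fewer than 100 tags the counts were 1 of 7 in snoRNAs and 2 of 8 elsewhere in hosts, against 127 of 2271 in the whole list. The 6 partial snoRNA sites had a median of 205 tags and the 8 others a median of 60. In contrast, the 3 partial host sites had a median of 96 tags and the other 12 a median of 98. Every listed site has at least 13 deleted tags, which sets a higher lowest share at lower coverage; its part in the difference was not tested.

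**Figure D4:**
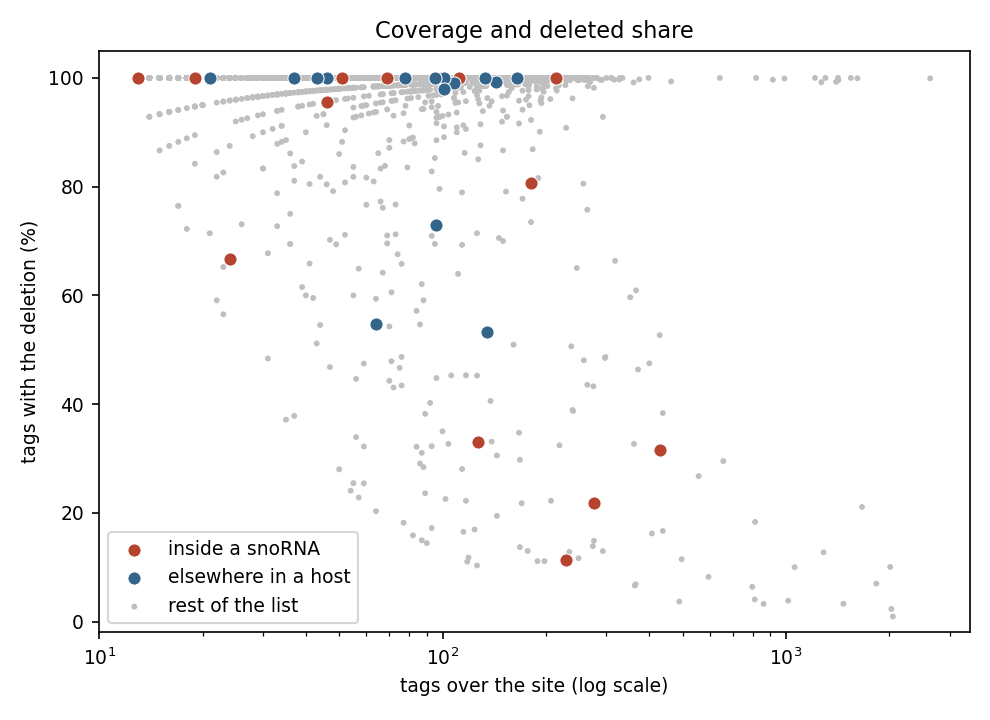
Tags over the site (log scale) against the percentage of tags with the deletion, for the 14 sites in snoRNAs, the 15 sites elsewhere in hosts and the 2931 other sites of the list. The 4 lowest snoRNA sites have 127 to 430 tags; the lowest host site outside snoRNAs is at 53.3%.

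The annotated starts of the hosts were examined for a sequence feature that the rule did not use. Many snoRNA host genes are known to start transcripts with a run of C and T, the terminal oligopyrimidine motif of translation-regulated mRNAs. The RefSeq promoter table (GRCh38.p14) covers 12 of the 14 hosts with a site. The letters CTTTT, searched on the transcribed strand from 10 bases before to 20 after the annotated start, occurred in 5 of these 12 (41.7%), in 4 of 23 hosts without a site (17.4%) and in 3.56% of all 27303 gene starts in the table. A run of 8 or more C or T in the same window occurred in 3 of the 12, in 5 of the 23 and in 12.6% of all starts. By type, CTTTT occurred in 2 of 8 noncoding hosts with a site and in 3 of 4 protein-coding ones. Among all long noncoding starts it occurred in 4.38%, and among all protein-coding starts in 2.97%. The run occurred in 1 of the 8 noncoding hosts and 2 of the 4 protein-coding ones, against 12.5% and 12.6% of such starts. The motif was picked after the hosts were known and no test was made.

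The 5 noncoding hosts with a site inside a snoRNA are shown from 30 bases before to 30 after the annotated start, with capitals for the longest unbroken run of C or T that touches the searched window of 10 bases before to 20 after. They are chr1:173869016-173869075 for GAS5, chr11:62855856-62855915 for SNHG1 and chr6:85678704-85678763 for SNHG5, all minus strand, and chr17:16438957-16439016 for SNHG29 and chr20:49278612-49278671 for ZFAS1, both plus strand.
GAS5: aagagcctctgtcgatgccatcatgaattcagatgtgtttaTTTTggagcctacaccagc
SNHG1: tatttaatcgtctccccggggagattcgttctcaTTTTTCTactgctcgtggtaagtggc
SNHG5: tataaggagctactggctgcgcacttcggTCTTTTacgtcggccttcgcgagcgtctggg
SNHG29: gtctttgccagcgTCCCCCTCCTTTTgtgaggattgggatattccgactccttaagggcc
ZFAS1: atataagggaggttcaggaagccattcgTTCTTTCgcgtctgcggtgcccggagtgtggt
In SNHG5 and ZFAS1 the run of 6 and 7 bases spans the annotated start, in SNHG29 the run of 13, of which 6 bases fall in the searched window, lies before it and in SNHG1 the run of 7 after it. In GAS5 no run over 4 touches the searched window. Other transcript starts, of GAS5 or of any host, were not searched. For ZFAS1 the start shown lies inside the gene body used for its sites, which begins at chr20:49278178. The start used for SNHG12, counted above, likewise lies inside its gene body.

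Genes for the snoRNA particles themselves were also looked up. Of 22 core and assembly factors, 7 held a site (31.8%), against 10.1% of all protein-coding genes. NOP56 and NOP58 are among the 7 and are hosts too, and DKC1 is a listed host without a site. The list was chosen with earlier results of these data known. Gene length and RNA abundance were not matched, so this share is a description. SNU13, which binds the kink-turn of box C/D RNAs, had the deletion in all 29 tags of its site. The nucleolar chaperone NOLC1 had it in all 28, the H/ACA assembly factor NAF1 in all 128 and the exosome nuclease EXOSC10, which trims snoRNA ends, in all 35. RUVBL1, an AAA+ ATPase of the assembly complex, held a site on its own strand with all 39 tags deleted and another on the opposite strand, with all 163, that also falls in SEC61A1. None of the 9 sites in these genes, which include the SNORD11 site in NOP58, had a partial share, against 7.5% of all 2960 sites. So few sites cannot set these genes apart from the list. No site was listed in FBL, DKC1, NHP2, NOP10, GAR1, NUFIP1, RUVBL2, PIH1D1, RPAP3, ZNHIT3, ZNHIT6, SHQ1, AQR, DBR1 or TGS1.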

How the data were processed

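The deposited data are 1 list of single-base positions. Per the file headers and name, it is pooled over the libraries, limited to unique tags and deletions, and filtered at an FDR of 10% by crosslink-induced mutation site analysis. The authors' count of deleted tags and the count of tags over the position, held in its name, were used as deposited, unnormalized. The genome build was hg38, per the submitters' processing notes, which also list UMI-tools, SAMtools, cutadapt and BWA (0.7.17) without roles or settings. Tags over the 29 sites summed to 3256 and over all sites to 246057; depth per library is unknown.

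Sites were placed in 58952 gene bodies of the RefSeq table of GRCh38.p14, with 1-based coordinates. Host strand came from the RefSeq promoter table, where listed. Neither sequence table covers a site inside a snoRNA, so snoRNA sequences and the planned search for boxes C and D were not used here. No comparison between samples was possible with 1 group, and no test was made. All snoRNAs and hosts with a site are named, and listed snoRNP genes are counted. A gene that the naming rule for other hosts picks is not reported here. The members, gene lists and the 90% threshold were chosen with earlier results of these data known. Site assignment and intervals were tested on simulated data. Python 3.11.15, pandas 2.3.3 and scipy 1.17.1 were used.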

Additional observations from a re-analysis of the deposited data

How the results depend on the processing

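Sites inside snoRNAs numbered 14 as reported, 15 with gene bodies widened by 10 nt and 14 when merged within 50 nt. They fell to 8 when a site needed a deleted-tag count above the list's median, to 6 among sites with a share under 90% and to 9 when sites in any further gene were left out, which necessarily drops the snoRNAs of hosts outside the rule. Sites elsewhere in hosts numbered 15 as reported and 10 to 14 under these settings, except 3 with a share under 90%, where their median share was 54.7%. The median share in snoRNAs was 97.8% as reported (order-statistic interval 31.6 to 100), 32.3% among sites with a share under 90%, which selects low shares, and 80.7% when sites in any further gene were left out; under the other settings both medians were 97.8% or more. A share under 80% was found at 27.6% of the 29 sites and a share under 100% at 44.8%, against 31.0% under 90%; over all sites these were 5.71%, 24.2% and 7.5%. No paired analysis was possible because the list is pooled and has no column per replicate; for the same reason no replicate could be left out. Few sites and low coverage limit every share, and RNA abundance was not measured.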

Other observations

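Outside the hosts named above, 248 protein-coding or long noncoding genes contain an annotated SNORD or SNORA gene, and 71 of them (28.6%) held a site outside the snoRNA, against 10.1% of all protein-coding and 1.19% of all long noncoding genes with a site. The median length of the 248 genes was 43080 nt, and the shares are not matched on length. Counted gene by gene, these genes held 119 such sites, of which 10 (8.40%) had a deleted share under 90%, close to the 7.5% of all sites. A site in overlapping genes is counted in each, as for RPL17 with RPL17-C18orf32 and EIF4A1 with SENP3-EIF4A1. Genes with the most such sites, counting any annotated snoRNA, included the microRNA cluster host MIR99AHG with 25, NAALADL2 with 7, the hnRNP gene HNRNPU with 5, AMD1 (a polyamine synthesis enzyme) and TENM1 with 4 each, CUX1, FASN (fatty acid synthase), HSPA9 and RERE with 3 each, and UBAP2L and USP34 with 2 each. Of the 5 protein-coding genes outside the rule whose snoRNA held a site, HSPA9 had all 100 tags deleted at the best covered of its 3 further sites, RPL3 all 22 and ATP5F1B all 16 at 1 further site each. RPL3 thus had 1 site at 11.4% in SNORD83B and 1 at 100% elsewhere in its body.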
